A study of Mus musculus with 5 samples.

Results

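Genes that fold, oxidise, transport and degrade proteins in the endoplasmic reticulum (ER), or that signal when this compartment is overloaded, were compared between sorted mouse brain dendritic cells (DCs) and bone marrow monocytes. A list of 40 genes was fixed by name and matched to the probe sets annotated to exactly 1 gene symbol. Of these, 39 were measured among 18193 genes on the array, 37 under the listed symbol and 2 (Ero1l and Ero1lb) under their current symbols Ero1a and Ero1b. Sec61g was found only on a probe set that also names other genes and has no value of its own. The list is one of gene names and its rule uses no measured value, but it was chosen with earlier results of these data known.

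The endoplasmic reticulum receives nascent secretory and membrane proteins through the Sec61 channel, folds them with chaperones and disulfide isomerases, and returns failed products to the cytosol for degradation. When unfolded proteins accumulate, the sensors IRE1 (Ern1), PERK (Eif2ak3) and ATF6 start the unfolded protein response: IRE1 splices the Xbp1 messenger, PERK slows translation and favours synthesis of ATF4, and ATF6 is cut into a transcription factor. Dendritic cells use this compartment to load antigen peptides on MHC class I molecules, and the IRE1-XBP1 arm is known for its part in their biology.

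The brain DC group held 2 arrays of lineage-negative cells with high CD45 and with CD11c, sorted from the brains of C57BL/6 female mice aged 6 to 8 weeks. These mice had been injected under the skin, 12 days before the organs were taken, with B16-Flt3L tumour cells, a melanoma line that releases the dendritic cell growth factor Flt3 ligand. Monocytes, on 3 arrays, were sorted from bone marrow of female C57BL/6 mice of the same ages by low side scatter, strong CD11b staining and CD115, the receptor encoded by Csf1r; the labels name no treatment for them. Brain DCs therefore came only from tumour-bearing, Flt3 ligand-exposed mice, and tissue, cell type and treatment cannot be told apart in any value given here. The labels do not say whether samples came from separate animals or pools, so a p-value here reflects array-to-array spread alone, which may be technical.

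All values are log2 expression centred for each probe set and averaged over the probe sets of a gene. They give differences between arrays and no level of one gene against another. Differences are brain DC minus monocyte, with the standard error (SE) of a limma fit to all genes (n = 2 and 3 arrays). A gene was called where its Benjamini-Hochberg adjusted p over all genes was under 0.05. With 2 against 3 arrays an exact two-sided permutation test cannot give a p below 0.1. In bulk samples, fewer cells of a type and less RNA per cell cannot be told apart.

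The markers moved as the labels name the cells: all 10 dendritic cell markers measured were higher in brain DCs, among them Itgax (5.02 ± 0.21), the gene of CD11c, and all 8 measured monocyte markers were lower, among them Csf1r (-1.40 ± 0.18) and Itgam (-2.28 ± 0.42). Other cell markers moved with the groups as well. Higher in brain DCs were 8 of 9 microglial, 5 of 10 plasmacytoid dendritic cell, 5 of 9 natural killer, 3 of 9 B cell and 4 of 13 choroid plexus, glial, neuronal and endothelial genes. Lower were 6 of 10 neutrophil genes and 8 of 12 proliferation genes, 1 of which was higher. Of 14 immediate early genes, which respond to stimulation and tissue handling, 13 were higher; their summed values lay between 10.2 and 12.6 in brain DC arrays and between -29.8 and -22.5 in monocyte arrays. Control probe sets also differed. The 24 poly-A spike-in probe sets were all higher in brain DC arrays, by a median of 2.59. For Gapdh, the 5′ control probe set minus the 3′ one, a sign of transcript integrity, was 0.34 and 0.22 in the brain DC arrays and -2.78, -2.86 and -2.28 in the monocyte arrays. For beta-actin it was 0.16 and 0.31 against -3.99, -3.98 and -1.60. For the other 2 controls, transferrin receptor and pyruvate carboxylase, the groups differed by 0.10 and 0.21. The part of these differences in the results below was not tested.

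Of the 39 measured genes, 13 (33.3%) passed the test as higher in brain DCs, 5 (12.8%) as lower, and 21 did not pass, against 16.9% higher and 16.9% lower among all genes tested. With each gene taken from its probe set of highest mean over the 5 arrays, 10 were higher and 9 lower. Over all genes, 2595 were then higher and 3133 lower. The values are centred, so this choice does not follow brightness, and 3 of the 5 arrays it averages are monocytes. The median difference was 0.13, against 0.09 over all genes. The 2 groups did not overlap in 27 of the 39 genes, against 60.2% of all genes. The 13 higher genes were Ppp1r15a, Ddit3, Atf4 and Chac1 of the stress signalling branch, the chaperones and their partners Manf, Creld2, Sdf2l1, Hspa5 and Calr, the disulfide enzymes Pdia3 and Ero1b, the degradation gene Herpud1 and the translocon gene Ssr2. The 5 lower genes were Ern1, Ero1a, Derl2, Edem1 and Sel1l. A change of at least 2-fold was seen in 5 of the higher genes and 0 of the lower ones. Of all 18193 genes, 1106 were at least 2-fold higher and 1381 at least 2-fold lower. The 5 higher genes (Ppp1r15a, Manf, Creld2, Sdf2l1 and Ssr2) were read by 1 probe set each. The lower genes were averages of 2 to 5 probe sets, and the lowest probe set of each lay between -2.77 and -1.26. Ero1a and Sel1l were no longer called without brain DC replicate 1. That fit leaves 1 brain DC array, and fewer of all genes were lower in it as well.

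**Figure D1:**
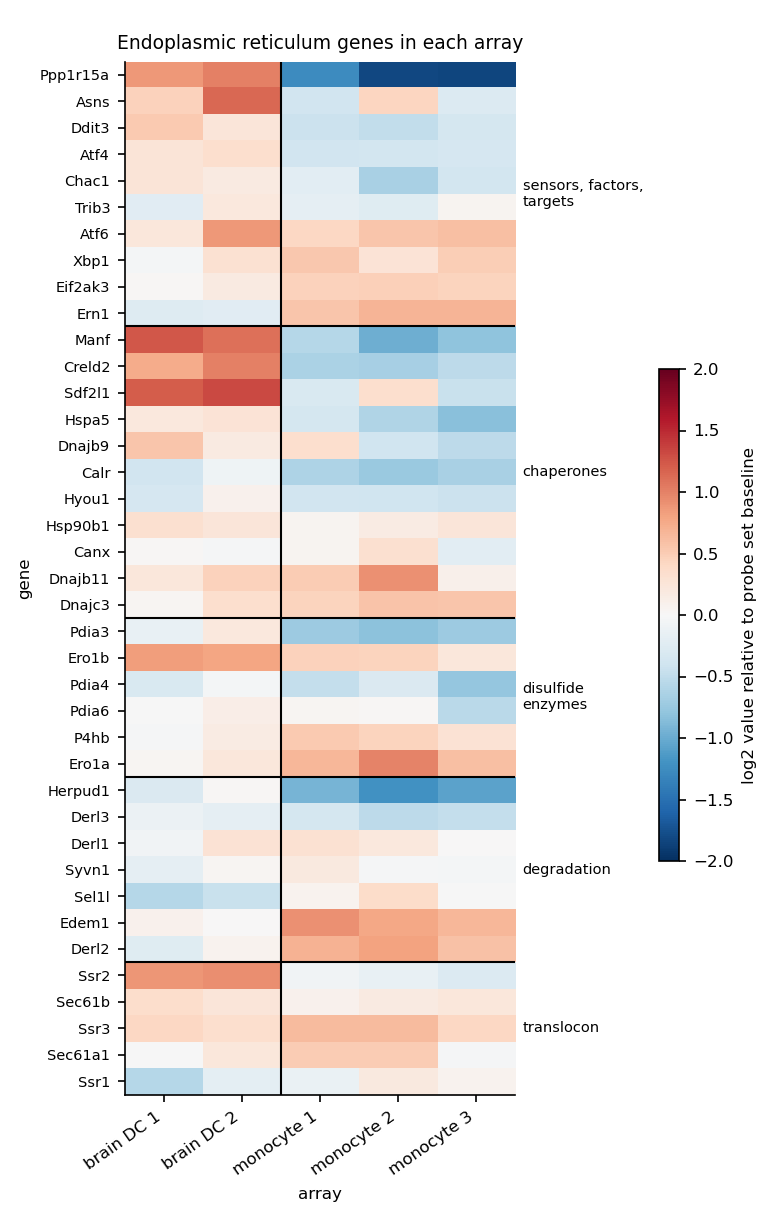
Log2 value relative to the probe set baseline (colour, red above and blue below 0) of the 39 measured genes (rows, grouped by role and ordered by difference) in the 5 arrays (columns). Ppp1r15a, Manf and Creld2 are above 0 in both brain DC arrays and below 0 in all 3 monocyte arrays, while Edem1 and Ern1 are higher in the monocyte arrays.

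Among sensors, transcription factors and their targets, Atf4 and 3 genes that act after it (Ddit3, Chac1 and Ppp1r15a) were higher in brain DCs, while the sensor gene Ern1 was lower. The other 5 of the 10 did not pass, and the median difference was 0.37. Counts by role rest on few genes and are given as a description, with 16.9% of all genes called in each direction. Ppp1r15a, which encodes GADD34, the phosphatase subunit that restores translation after stress, measured 0.86 and 1.01 in brain DCs and -1.25, -1.81 and -1.83 in monocytes. Both brain DC arrays lay far above every monocyte array, and the gene was 5.93-fold higher (2.57 ± 0.20, limma adjusted p = 0.000103). It is also induced early by many stimuli, and 13 of the 14 immediate early genes were higher in brain DCs too. The part of stimulation or handling in the Ppp1r15a difference was not tested.

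Ddit3, which encodes the stress transcription factor CHOP, was at 0.52 and 0.25 against -0.42, -0.49 and -0.34. The groups were apart, with a difference of 0.80 ± 0.14 (1.74-fold, limma adjusted p = 0.00360). The call rested on 1 of its 2 probe sets: the other probe set, which has the higher mean, gave no call when taken for the gene (0.44, limma adjusted p = 0.116). Atf4, the factor whose translation rises when PERK is active, was at 0.25 and 0.33 against -0.38, -0.37 and -0.34. Its messenger was 1.57-fold higher (0.65 ± 0.12, limma adjusted p = 0.00460) and its protein was not measured. The 3 monocyte arrays lay close together, below both brain DC arrays.

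Chac1, a glutathione-degrading enzyme induced through ATF4, was at 0.26 and 0.19 against -0.21, -0.64 and -0.37. The difference of 0.63 ± 0.16 passed the threshold (limma adjusted p = 0.0183) but not without either brain DC array. Asns, the asparagine synthetase gene, was at 0.46 and 1.15 against -0.39, 0.43 and -0.28. Brain DC replicate 1 and monocyte replicate 2 nearly touched, and the difference of 0.88 ± 0.29 was not called (limma adjusted p = 0.0519); it passed the threshold when either of those 2 arrays was left out. Trib3, a pseudokinase that is another target of this branch, was at 0.11 ± 0.17 with overlapping groups.

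Of the 3 sensor genes, 1 was called, where 33.8% of all genes were called in either direction. Ern1, the IRE1 sensor, was at -0.26 and -0.23 in brain DCs and 0.55, 0.68 and 0.68 in monocytes. Its arrays fell into separate ranges, and it was 1.85-fold lower in brain DCs (-0.88 ± 0.12, limma adjusted p = 0.00139). Eif2ak3, the PERK sensor, was at 0.03 and 0.18 against 0.46, 0.48 and 0.44. The groups did not overlap, yet the difference of -0.35 ± 0.12 was not called (limma adjusted p = 0.0598); it passed with arrays centred on their median. Atf6 was at 0.23 and 0.87 against 0.41, 0.56 and 0.60, so the monocyte arrays lay between the 2 brain DC arrays (0.03 ± 0.20). Xbp1 overlapped narrowly between groups, at -0.04 and 0.31 against 0.54, 0.28 and 0.50 (-0.31 ± 0.16, limma adjusted p = 0.176). Its call depended on the probe sets used: it was lower with the median probe set (-0.46) or that of highest mean (-1.02), and higher with plain _at probe sets alone (0.95). The array values do not separate spliced from unspliced Xbp1 messenger.

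Of the 11 chaperone and co-chaperone genes, 5 rose in brain DCs and 0 fell in the limma fit, with a median difference of 0.43. Over all genes, 16.9% were called in each direction. At an unadjusted limma p under 0.05 there were 6 of 11, the other one being Dnajc3, with a negative difference. Of all 18193 genes, 8049 were under that p. When genes did not share their spread, 2 of the 5 were called, and the higher genes over the whole array fell from 3068 to 1339. The largest differences were in Manf, Creld2 and Sdf2l1. Manf, a secreted and luminal stress-induced protein, was at 1.24 and 1.10 in brain DCs and -0.57, -0.98 and -0.81 in monocytes. It was 3.88-fold higher (1.95 ± 0.16, limma adjusted p = 0.000118), with a gap of 1.67 between the closest arrays of the 2 groups.

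Creld2, a stress-induced luminal protein, was at 0.75 and 1.01 against -0.63, -0.66 and -0.53. It was 2.80-fold higher (1.49 ± 0.14, limma adjusted p = 0.000222), with tight monocyte arrays. Sdf2l1, a partner of the Hsp70 cycle in this compartment, was at 1.21 and 1.32 against -0.30, 0.33 and -0.45. Monocyte replicate 2 stood above the other 2 monocyte arrays, but the groups stayed apart (1.40 ± 0.23, 2.65-fold, limma adjusted p = 0.00297).

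Hspa5, which encodes BiP, the central Hsp70 chaperone that holds the sensors inactive, was at 0.21 and 0.27 against -0.35, -0.61 and -0.84. It was 1.79-fold higher (0.84 ± 0.16, limma adjusted p = 0.00651), with all monocyte arrays below both brain DC arrays. The Hspa5 call was lost with its probe set of highest mean (0.38, limma adjusted p = 0.202) and when genes did not share their spread. Calr, the calreticulin gene of the glycoprotein folding cycle and of MHC class I loading, was at -0.38 and -0.09 against -0.62, -0.74 and -0.65. Its difference of 0.43 ± 0.14 was close to the threshold (limma adjusted p = 0.0472) and was not called without brain DC replicate 2 or without any 1 of the 3 monocyte arrays.

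The remaining 6 chaperone genes were not called. Hsp90b1, the gene of the Hsp90 paralogue GRP94, was at 0.13 ± 0.13, and the membrane chaperone gene Canx was at -0.05 ± 0.17. Hyou1, which encodes a large Hsp70-related chaperone, was at -0.34 and 0.09 against -0.38, -0.40 and -0.44. The groups did not overlap, with a gap of 0.04, but the brain DC arrays lay farther apart than the difference (0.28 ± 0.15). Among the J-domain co-chaperones, Dnajb9 (0.56 ± 0.26), Dnajb11 (-0.17 ± 0.23) and Dnajc3 (-0.34 ± 0.14) went different ways. Dnajb9 was at 0.34 in monocyte replicate 1, between both brain DC arrays, and at -0.40 and -0.52 in the other 2 monocyte arrays; without that array it was called (0.83).

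Of 6 enzymes that make and rearrange disulfide bonds, 2 were higher, 1 lower and 3 not called, with a median of 0.28. The share of all genes called was 16.9% in each direction. Pdia3, the isomerase that works with calnexin and calreticulin and in the MHC class I loading complex, was at -0.14 and 0.20 against -0.73, -0.82 and -0.73. It was 1.73-fold higher (0.79 ± 0.14, limma adjusted p = 0.00489). The Pdia3 call was lost with its probe set of highest mean and when genes did not share their spread. The oxidase genes that recharge these isomerases went opposite ways. Ero1a was at 0.04 and 0.22 against 0.67, 0.98 and 0.59, and was 1.54-fold lower (-0.62 ± 0.16, limma adjusted p = 0.0204). Ero1b was at 0.84 and 0.78 against 0.46, 0.45 and 0.22, and was 1.35-fold higher (0.44 ± 0.13, limma adjusted p = 0.0400). Both had separate groups, but the Ero1b call was lost without any 1 of the 5 arrays and the Ero1a call without brain DC replicate 1. Pdia4 (0.34 ± 0.18), Pdia6 (0.22 ± 0.20) and P4hb (-0.34 ± 0.14), which encode further disulfide isomerases, were not called, and only P4hb had groups apart.

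Degradation genes held 3 of the 5 decreases: of 7, 1 (14.3%) was higher, 3 (42.9%) lower and 3 not called, with a median of -0.12. Both shares stand against 16.9% of all genes called in each direction. Herpud1, a stress-induced membrane protein of the degradation complex, was at -0.29 and 0.03 in brain DCs and -0.93, -1.22 and -1.07 in monocytes. It was 1.91-fold higher (0.94 ± 0.15, limma adjusted p = 0.00306), with every monocyte array below both brain DC arrays. The 3 lower genes act in the recognition and extraction of misfolded proteins. Derl2, a derlin of the extraction channel, was at -0.24 and 0.07 against 0.69, 0.81 and 0.58 (-0.78 ± 0.15, 1.72-fold, limma adjusted p = 0.00574).

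Edem1, which helps to single out misfolded glycoproteins by trimming mannose, was at 0.08 and 0.01 against 0.92, 0.78 and 0.67. It was 1.67-fold lower (-0.74 ± 0.13, limma adjusted p = 0.00427) and kept its call without any 1 of the arrays. Sel1l, the scaffold of the ligase complex, was at -0.57 and -0.45 against 0.07, 0.37 and -0.01 (-0.65 ± 0.15, 1.57-fold, limma adjusted p = 0.0141). Syvn1, the ubiquitin ligase that Sel1l holds, was at -0.12 ± 0.14 with overlapping groups. Derl1 (-0.07 ± 0.16) and Derl3 (0.31 ± 0.12), the other derlins, were not called.

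In the translocon, 1 of 5 measured genes was higher, 0 were lower and 4 were not called, with a median of -0.18. Of all genes, 16.9% were called in each direction. At an unadjusted limma p under 0.05 there were 2 of 5, against 8049 of all 18193 genes. Ssr2, a subunit of the translocon-associated protein complex, was at 0.88 and 0.93 against -0.06, -0.16 and -0.27. It was 2.10-fold higher (1.07 ± 0.13, limma adjusted p = 0.000713). Its partner subunit genes Ssr1 (-0.43 ± 0.17, limma adjusted p = 0.0831) and Ssr3 (-0.18 ± 0.13) had negative differences and were not called. The channel genes Sec61a1 (-0.22 ± 0.19) and Sec61b (0.13 ± 0.12) were not called either. The probe set that names Sec61g together with 2 other symbols was at 1.82 and 1.27 in brain DCs and -0.44, -0.93 and -0.38 in monocytes, and cannot be given to Sec61g alone. A second Sec61b probe set, which also names Gm10320, was higher in brain DCs (0.79 ± 0.16, limma adjusted p = 0.00919) and was not used for the gene.

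**Figure D2:**
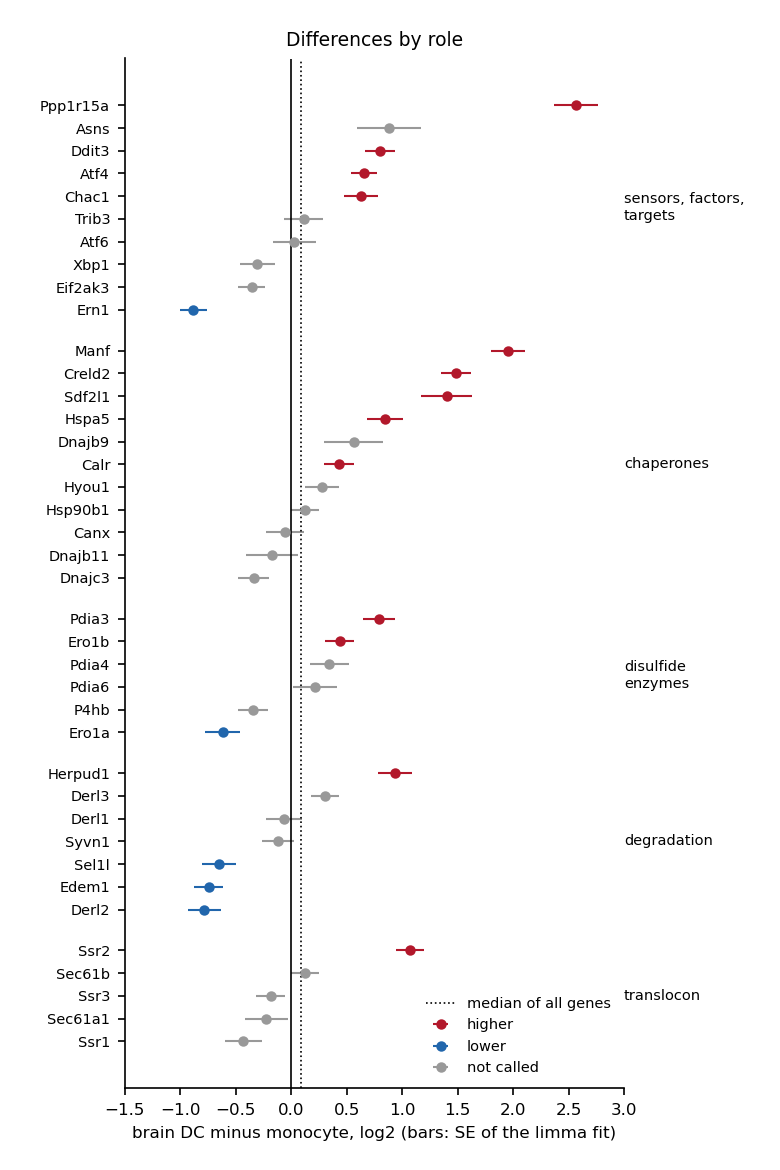
Difference in log2 expression, brain DC minus monocyte (x axis), of each measured gene (y axis, grouped by role); points are limma estimates from 2 and 3 arrays, bars their SE, colours the call at an adjusted p under 0.05, and the dotted line the median of all genes (0.09). Ppp1r15a (2.57) and Manf (1.95) lie farthest to the right and Ern1 (-0.88) farthest to the left.

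Probe sets of the same gene often disagreed, which bears on the averages given so far. The 39 genes were read by 95 probe sets, 28 genes by more than 1. Tested singly, 19 of the 95 were higher and 19 lower, against 12.3% higher and 15.4% lower among all 45101 probe sets on the array. In 16 of the 28 genes the probe sets differed in sign, and in 12 they lay more than 1 apart on the log2 scale. Xbp1 and Derl1 had probe sets called in opposite directions. For Xbp1, 3 probe sets were lower in brain DCs (-1.02, -0.60 and -0.55) and 1 was higher (0.95). For Derl1, 2 were lower (-1.01 and -0.66), 1 higher (1.30) and 1 not called (0.10).

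The lower calls rested on part of each gene's probe sets. Of the 5 probe sets of Ern1, 2 were lower by much (-2.77 and -1.77) and 3 were near 0 (-0.08, -0.06 and 0.25), so that its median probe set gave no call (-0.31, limma adjusted p = 0.143). Derl2 (-1.68 and 0.11) and Edem1 (-1.54 and 0.06) each had 1 probe set that fell and 1 that did not. For Eif2ak3, 1 probe set was lower (-1.93) while the other 2 were at 0.40 and 0.47 and not called. Sel1l was lower on 3 of 5 probe sets, from -1.47 to -0.69, and Ero1a on 2 of 3 (-1.26 and -0.63, against 0.04).

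Among the higher genes, both probe sets of Herpud1 were called (1.23 and 0.64). Calr was called on 1 of 3 (0.72, the others at 0.32 and 0.25) and Pdia3 on 1 of 2 (0.99, the other at 0.60). For Atf4 the probe sets gave 1.22, 0.67 and 0.08, and for Hspa5 1.52, 0.63 and 0.38, with 2 of 3 called in each. Hsp90b1 was called higher on 1 probe set (0.83) and was at -0.57 on the other, which was not called. None of the 3 probe sets of Ero1b was called alone (0.54, 0.42 and 0.35). Ppp1r15a, Manf, Creld2, Sdf2l1, Chac1 and Ssr2 were read by 1 probe set each, so no second reading exists for them. Where along the transcript each probe set lies was not used here, and the part of the 5′ to 3′ difference seen for Gapdh and beta-actin in these disagreements was not tested.

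**Figure D3:**
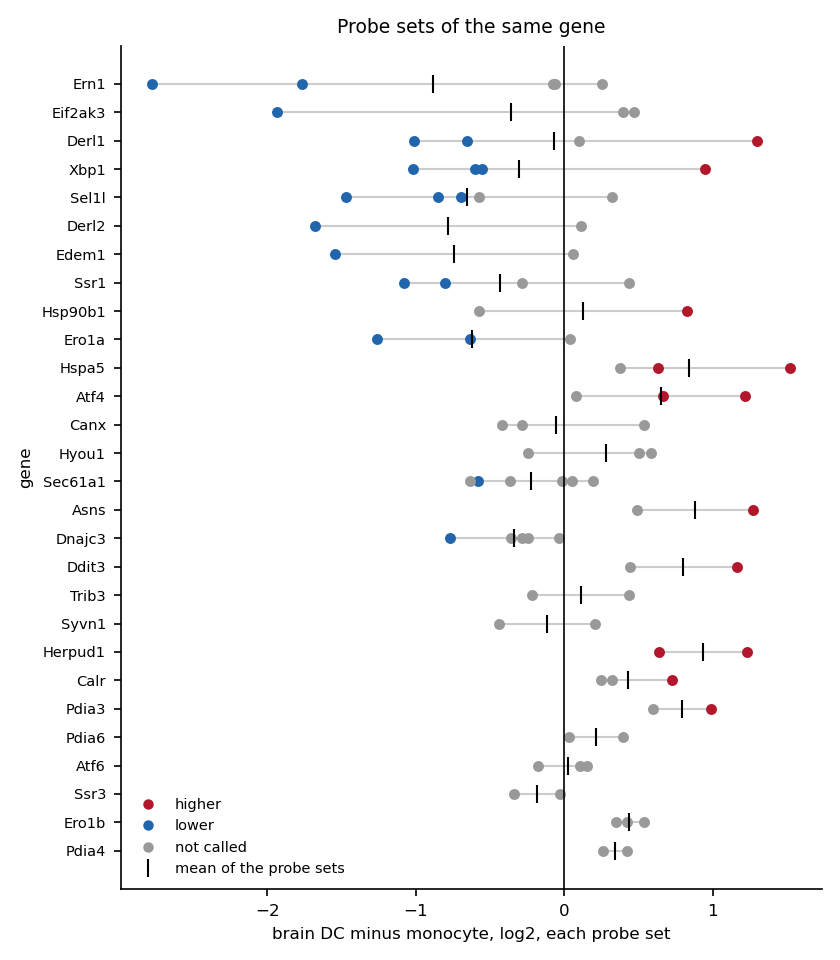
Difference in log2 expression, brain DC minus monocyte (x axis), of each probe set of the 28 genes with more than 1 (y axis, widest disagreement at the top); colours give the call of each probe set and black ticks their mean. Xbp1 and Derl1 carry points of both colours, and Ern1 spans from -2.77 to 0.25.

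The promoters of these genes were searched for the element through which ATF6 and XBP1 act, since the chaperone genes are textbook targets of it. RefSeq promoter sequences of build GRCm38.p6, from 250 bases before to 50 bases after each start, were matched for 33 of the 39 genes by symbol (Atf6, Hyou1, Manf, Derl1, Sec61a1 and Ssr2 had no entry). The ER stress element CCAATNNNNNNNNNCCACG, searched on both strands, was found in 10 of the 33 (30.3%) and in 37 of 27025 genes with a promoter in the table (0.137%). It was found in 0 of 99 other genes of the pathway. The genes were chosen with knowledge of this response, so the share describes the choice. The matches are printed along the strand of the element, with the fixed letters at both ends in capitals:

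Hspa5, chr2:34772025-34772043: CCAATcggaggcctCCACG

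Creld2, chr15:88819520-88819538: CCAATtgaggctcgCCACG

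Calr, chr8:84847075-84847093: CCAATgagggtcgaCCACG

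Ero1b, chr13:12565682-12565700: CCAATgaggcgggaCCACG

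Hsp90b1, chr10:86705638-86705656: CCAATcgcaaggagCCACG

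Hsp90b1, chr10:86705533-86705551: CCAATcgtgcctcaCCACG

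Canx, chr11:50325800-50325818: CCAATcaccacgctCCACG

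Dnajc3, chr14:118937827-118937845: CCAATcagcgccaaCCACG

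Pdia6, chr12:17266491-17266509: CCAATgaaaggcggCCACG

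Syvn1, chr19:6046532-6046550: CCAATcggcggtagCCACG

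Derl3, chr10:75893242-75893260: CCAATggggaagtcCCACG

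The first 4 lines are from genes higher in brain DCs and the other 7 from 6 genes that were not called. By call, the element was found in 4 of 11 higher genes with a promoter, 6 of 17 not called and 0 of 5 lower. Genes that hold it had differences of both signs: Creld2 was at 1.49 and Hspa5 at 0.84, whereas Dnajc3 was at -0.34 and Canx at -0.05. A second form, ATTGGNCCACG, was found in Herpud1 (chr8:94386377-94386387, ATTGGgCCACG) and Dnajb11 (chr16:22857852-22857862, ATTGGcCCACG), 6.06% of the 33 against 0.0444% of all. Herpud1 also holds the amino acid response core TGATGNAA, to which ATF4 binds with its partners. That core was found in 4 of the 33 (12.1%), also in Chac1, Asns and Trib3. It was found in 9 of the 99 other genes of the pathway (9.09%) and in 4.51% of all genes. The core TGACGTGG was found in 0 of the 33, in 4.04% of the 99 other genes of the pathway and in 0.714% of all genes.

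The 150 bases before the start are shown for 3 called genes that hold a match, read along the gene's strand with matched letters in capitals. They show where in the promoter each element lies. All 3 genes are on the + strand of GRCm38.p6:

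Hspa5, chr2:34771940-34772089: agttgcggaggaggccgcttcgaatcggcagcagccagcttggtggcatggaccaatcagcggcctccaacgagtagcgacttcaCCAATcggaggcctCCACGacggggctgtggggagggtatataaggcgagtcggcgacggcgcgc

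Creld2, chr15:88819496-88819645: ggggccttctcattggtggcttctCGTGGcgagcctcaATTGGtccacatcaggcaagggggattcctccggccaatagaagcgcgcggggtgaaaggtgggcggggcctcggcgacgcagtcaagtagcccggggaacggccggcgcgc

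Herpud1, chr8:94386279-94386428: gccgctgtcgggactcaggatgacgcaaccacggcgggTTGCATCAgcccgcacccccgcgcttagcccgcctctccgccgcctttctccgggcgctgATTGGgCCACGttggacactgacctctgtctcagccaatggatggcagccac

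Counted from the start, the element spans positions -65 to -47 in Hspa5. In Creld2 it lies on the opposite strand at -126 to -108, and in Herpud1 the second form spans -52 to -42 and the amino acid response core, on the opposite strand, -112 to -105. A match of letters is not a site of binding, and no factor was measured here.

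**Figure D4:**
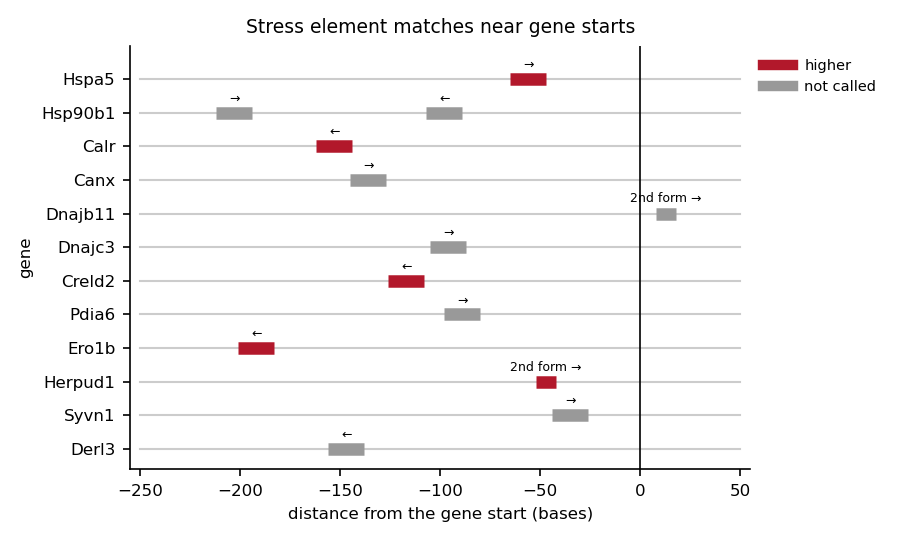
Position of stress element matches (bars, arrows giving the strand of the element) in bases from the gene start (x axis, from 250 before to 50 after) for the 12 genes with a match (y axis); red genes were higher in brain DCs and grey genes not called. Every match of the longer form lies before the start, and the match of the second form in Dnajb11 lies after it.

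Of 120 other measured genes of the same pathway, from a list drawn up by role, 25 (20.8%) were higher, 23 (19.2%) lower and 72 not called, with a median of 0.05. Both shares lie near the 16.9% of all genes called in each direction, and the counts by role are given as a description. Fewer were lower without brain DC replicate 1, a fit that leaves 1 brain DC array, and fewer of all genes were lower in it as well. Among other stress signalling genes, 5 of 29 were higher and 7 lower. Atf3, a stress-induced transcription factor, was higher by 3.64 ± 0.21, the growth inhibitor gene Ddit4 by 2.27 ± 0.34 and the amino acid transporter chain gene Slc3a2 by 1.87 ± 0.15, with Sars (0.91) and Creb3 (0.61) the other 2. The serine synthesis gene Psat1 (-1.14 ± 0.19) and the stress regulator gene Nupr1 (-1.03 ± 0.18) fell most.

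Among other chaperones and folding factors, 8 of 23 were higher and 5 lower. The luminal protein gene Erp29 (1.03 ± 0.12) and Cnpy3 (0.88 ± 0.19), a chaperone of Toll-like receptors, rose most. Dnajb14 (-2.11 ± 0.12), a membrane J-domain gene, and Lrpap1 (-1.20 ± 0.16), a chaperone of lipoprotein receptors, fell most, followed by Dnajc10 (-0.80), the glycoprotein folding sensor gene Uggt1 (-0.75) and Cnpy4 (-0.64). Among other disulfide enzymes, 3 of 17 were higher and 1 lower: Pdia5 was higher by 3.44 ± 0.27, the largest value of its role, with Vkorc1 (1.26 ± 0.18) and Selenom (0.89), and Tmx4 was lower (-0.84 ± 0.18).

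Other degradation genes were even, with 5 of 23 higher and 5 lower. Selenok (1.13 ± 0.21) and Man1b1 (0.86 ± 0.18), a mannosidase gene, rose most, with Aup1 (0.52), Vcp (0.51) and Selenos (0.50). Fam8a1 (-1.82 ± 0.14) and Edem3 (-1.05 ± 0.15), a relative of Edem1, fell most, with Faf2 (-0.98) and the lectin genes Erlec1 (-0.91) and Os9 (-0.76). Among other translocon, signal peptidase and oligosaccharyltransferase genes, 4 of 28 were higher and 5 lower. Tusc3 (1.49 ± 0.15), Dad1 (0.94 ± 0.15), Ssr4 (0.76) and Ostc (0.74) were the higher ones. Sec61a2 (-1.04 ± 0.18), Srp19 (-0.74 ± 0.18), Magt1 (-0.55), Stt3b (-0.47) and Tram1 (-0.47) were lower.

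**Figure D5:**
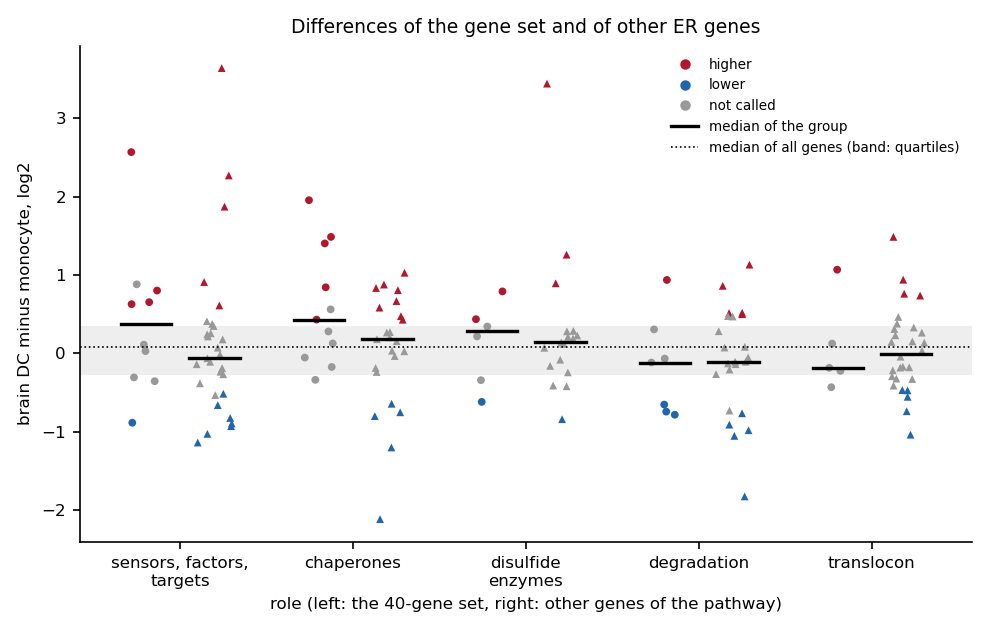
Difference in log2 expression, brain DC minus monocyte (y axis), by role (x axis) for the 39 measured genes (circles) and 120 other genes of the pathway (triangles); colours give the call, thick lines the median of each group, the dotted line the median of all genes and the grey band their quartiles. The chaperone circles have a median of 0.43 and no blue point, and 3 degradation circles are blue.

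Within the brain DC group, replicate 2 was above replicate 1 in 28 of the 39 genes (71.8%). This share was 61.7% in the 120 other genes of the pathway and 52.6% in all genes. The median of replicate 2 minus replicate 1 over the 39 genes was 0.15. The largest such gaps were in Asns (0.46 and 1.15) and Atf6 (0.23 and 0.87). Among the plasma cell markers, a cell type with abundant endoplasmic reticulum, 1 of 9 was higher (Tnfrsf17, 0.59), 1 lower (Prdm1, -0.94 ± 0.25) and 7 were not called. Their summed values lay between -0.22 and 2.52 in brain DC arrays and between -0.48 and 0.50 in monocyte arrays. The higher brain DC sum was that of replicate 1, where Jchain, the joining chain of secreted antibodies, was at 1.71; it was at -1.23 in replicate 2 and between -1.25 and -1.03 in monocytes, and was not called (limma adjusted p = 0.183).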

How the data were processed

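The submitters' processing notes name RMA, and the deposited values are on a log2 scale. Its version and the set of arrays processed together were not given in the sources used here. Both the log base and the centring of each probe set were inferred from the values. Biotinylated cRNA was hybridised to Affymetrix arrays, per the labels' protocols. The table held 45101 probe sets, 64 of them controls; 34945 had 1 gene symbol, 932 several and 9160 none. The 18193 genes were tested with limma 3.58.1 in R 4.3.3 (lmFit, eBayes, no covariate, 3 residual degrees of freedom) on the mean of each gene's probe sets, with Benjamini-Hochberg adjustment. Single probe sets were fitted the same way. Centred values carry no level, so no filter on dim genes was applied. The number of arrays limits the precision. The scripts were tested on simulated data. The members, gene lists, tests and alternatives were chosen with earlier results of these data known. All measured members could be named, and of other lists the called genes with the largest changes in each role and those making up counts of 5 or fewer; Tnfrsf17 and Jchain were named after their values were seen. A planned look at protein sequences is not analysed here. The alternatives changed how probe sets were combined, the normalisation, the variance model, the replicate block and the arrays kept. Replicate numbers are shared by the groups, but same-numbered arrays deviated together little (correlations of 0.04 and 0.09 over genes), and the labels state no pairing. Promoters were searched with Python 3.11.15.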

Additional observations from a re-analysis of the deposited data

How the results depend on the processing

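The 39 differences were recomputed under 13 alternatives, which gave 499 values: 431 kept direction and side of the threshold, 12 of genes not called either way changed sign, 37 lost the call, 17 gained one, and 2 turned direction with a call. Atf4, Ppp1r15a, Creld2, Manf and Edem1 kept their calls under all 13, and Ssr2 under the 12 that gave it a value. Ppp1r15a, Creld2, Manf and Ssr2 have 1 probe set each, so other ways of combining probe sets could not change their values. For Edem1, none of these ways used its flat probe set (0.06, not called) alone. The 13 higher members became 6 and the 5 lower ones 2 when genes did not share their spread, which leaves 3 degrees of freedom per gene. The 25 higher and 23 lower other ER genes then became 7 and 6. Over all genes, the 3068 higher and 3083 lower ones became 1339 and 1136. Taking for each gene the probe set of highest mean gave 10 higher and 9 lower members, and 2595 higher and 3133 lower of all genes. That mean is of centred values, so it does not pick the brightest probe set, and 3 of its 5 arrays are monocytes. With only plain _at probe sets, Xbp1 turned to 0.95 and Derl1 to 0.70, both called; with the probe set of highest mean they were called lower (-1.02 and -1.01), and Xbp1 also with the median probe set (-0.46). Leaving out 1 array gave 3 to 6 lower members and 14 to 20 lower other ER genes, the fewest without brain DC replicate 1 for both; with 1 brain DC array left, that array is assumed to vary like the others. With the replicate block, 12 members were higher and 5 lower: Calr and Ero1b lost their calls and Asns gained one. The arrays share only a number, and 2 pairs do not settle whether they pair. No filter on dim genes could be run, and levels are lost.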
